A study of Mus musculus with 10 samples.

Results

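The genes described here are 8 lysosomal cathepsins (Ctsa, Ctsb, Ctsc, Ctsd, Ctsh, Ctsl, Ctss and Ctsz), the saposin precursor Psap and the lysosomal membrane protein Lamp1. These 10 genes were taken by name, as mouse symbols of their Ensembl identifiers, from a table of 55359 genes, and all 10 were in it and passed the filter on low values. RNA of lineage-negative bone marrow cells was sequenced in 5 libraries from mice of genotype Dhx9f/f, called WT, and 5 from mice of genotype Dhx9f/f;MX1, called cKO, with 1 library for each labelled replicate. The comparison addresses what loss of Dhx9, an RNA helicase, does to blood progenitors. Both groups carry the floxed Dhx9 allele. Only the cKO group also carries Cre recombinase, which the Mx1 promoter expresses in response to interferon and which is induced with poly(I:C), a double-stranded RNA mimic that itself triggers interferon. The Mx1 promoter is active in many cell types besides blood stem cells. The sources used here time analyses in general from the first poly(I:C) dose, but do not state whether the sequenced WT mice received poly(I:C). An effect of the agent and one of the genotype therefore cannot be told apart. Ages are not given in the labels. Lineage-negative cells are what remains after magnetic depletion of cells with surface markers of mature blood lineages, and so are a mixture of stem cells, progenitors and residual maturing cells. Values are FPKM, which divide the fragments of a gene by its length and by the fragments mapped in that library. By the step size of low values, the libraries held 15045000 to 18711000 fragments in WT and 13837000 to 17191000 in cKO.

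Lysosomal cathepsins are proteases that are made as inactive precursors, sorted to the lysosome and activated there at acid pH. Most are cysteine proteases of the papain family (Ctsb, Ctsc, Ctsh, Ctsl, Ctss and Ctsz), whereas Ctsd is an aspartic protease and Ctsa a serine carboxypeptidase. Psap is cut in the lysosome into small saposins, which present sphingolipids to the hydrolases that degrade them, and Lamp1 is a heavily glycosylated protein of the lysosomal limiting membrane. In bone marrow, monocytes, macrophages and dendritic cells are known for large lysosomes and strong expression of several of these genes.

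The targeted gene was examined first. Dhx9 was at 69.0, 72.4, 72.2, 69.5 and 65.4 FPKM in WT replicates 1 to 5 and at 131, 149, 131, 156 and 132 FPKM in cKO replicates 1 to 5. Every library labelled cKO was thus above every WT library, against the direction of a deletion, with a log2 fold change of 1.0 ± 0.07 (SE; limma with Benjamini-Hochberg adjustment, adjusted p = 1.39e-05). A gene-level FPKM does not show whether particular exons are missing. All directions below are therefore those of the libraries as labelled. Xist was at 99.2, 121 and 128 FPKM in WT replicates 3, 4 and 5 and at most at 0.09 FPKM in the other libraries. The Y-linked gene Ddx3y was at 19.7 to 38.5 FPKM in all 5 cKO libraries, at 27.6 and 25.4 FPKM in WT replicates 1 and 2 and at no more than 0.05 FPKM in the others, so the groups differed in their share of libraries from female mice. The stem and progenitor markers Kit, Cd34, Cd48, Meis1, Hlf and Mecom summed to 126 to 173 FPKM in WT and 65.3 to 132 FPKM in cKO, and none of them was at 0 throughout a group. Cd48, the most abundant, was at a mean of 77.7 FPKM in WT and 82.4 in cKO, while each of the others had a lower mean in cKO.

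Among the members, Ctss, Ctsh and Psap were lower in the libraries labelled cKO and Ctsl was higher. Calls required an adjusted p below 0.05 and a change of at least 2-fold, from limma on log2(FPKM + 0.1) across 18742 genes. By these limits 3 of the 10 members were called lower, where 16.8% of all tested genes were, and 1 was called higher, where 4.60% were. With adjusted p alone, 7 members were lower (28.3% of all genes) and 1 higher (16.7%). In the same 7 members every cKO library lay below every WT library, as in 21.6% of all genes, and in Ctsl every cKO library lay above (10.6% of all genes). Only Ctsc and Ctsd had overlapping groups. The median log2 fold change was -0.69 over the 10 members and -0.11 over all genes tested. Quantile normalization moved the latter to 0.10 and the share of higher genes among all called genes from 21.5% to 41.3%, but all 4 member calls held with it and Ctsz was then called lower as well.

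**Figure D1:**
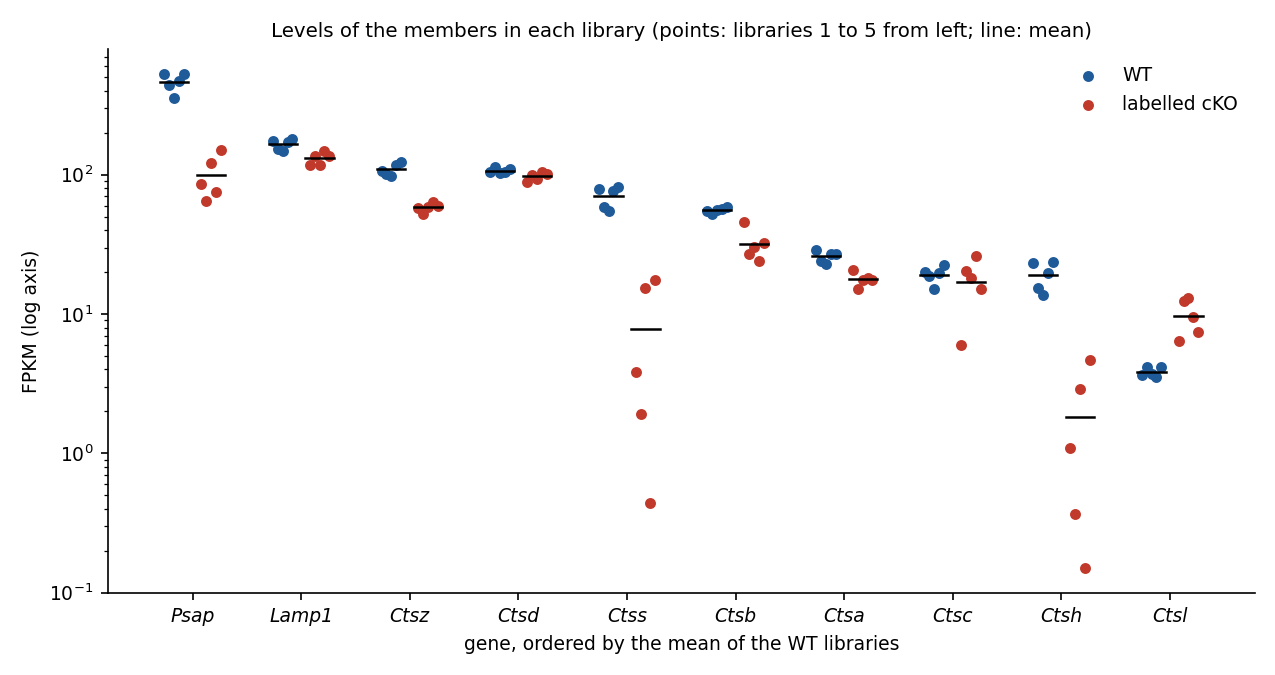
FPKM of each member (log axis) in the 5 WT libraries (blue) and the 5 libraries labelled cKO (red), with replicates 1 to 5 from left to right and a line at each mean. Psap stands highest in WT, and Ctss and Ctsh spread most widely in the cKO libraries.

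In WT, Psap was the most abundant member at 464 ± 71.2 FPKM (mean ± SD, n = 5), followed by Lamp1 at 166 ± 14.2. Ctsz at 109.8 ± 10.9 and Ctsd at 107 ± 4.81 came next and could not be ranked, since Ctsz was higher in only 3 of 5 libraries. Ctss at 70.1 ± 12.3 and Ctsb at 55.5 ± 2.15 also overlapped. Below them stood Ctsa at 25.9 ± 2.51, then Ctsc and Ctsh, both at 19.2, and Ctsl was last at 3.84 ± 0.301 FPKM. The order in the libraries labelled cKO was different. There Lamp1 (131 ± 13.2), Psap (99.7 ± 35.6) and Ctsd (97.6 ± 6.84) led, and the range of Psap overlapped with both others, while Lamp1 was above Ctsd throughout. Ctsz, Ctsb and Ctsa followed at 58.5 ± 4.09, 31.8 ± 8.38 and 17.9 ± 1.98 FPKM, and Ctsa overlapped with Ctsc at 17.1 ± 7.37. Ctsl, last in WT, stood at 9.73 ± 2.94 FPKM, above Ctss in 3 of 5 libraries, and Ctsh was last at 1.83 ± 1.91.

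**Figure D2:**
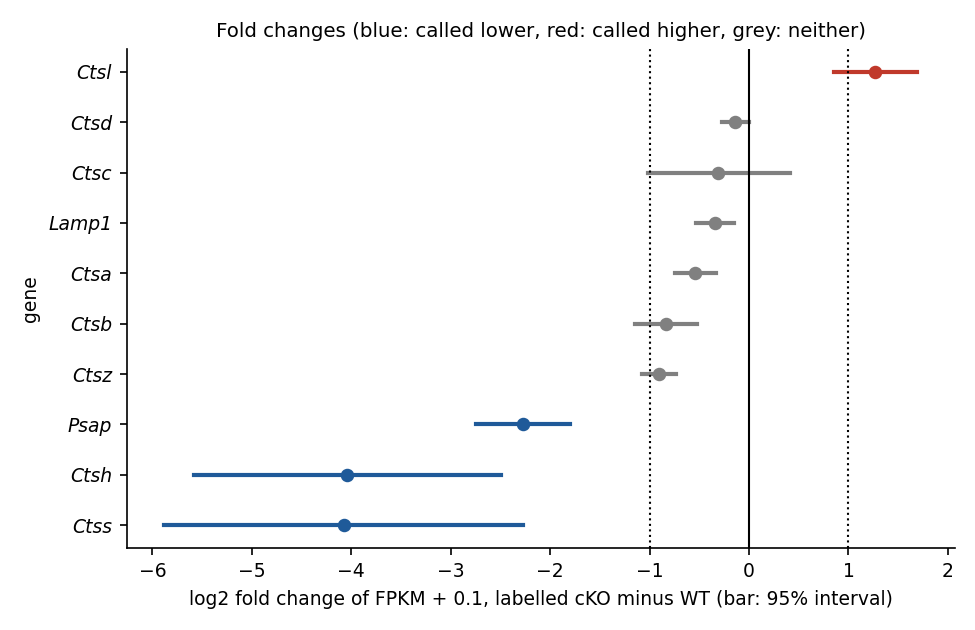
Log2 fold change of each member, cKO as labelled minus WT, on the log2(FPKM + 0.1) scale, with bars for the 95% interval from limma and dotted lines at a 2-fold change. Ctss, Ctsh and Psap lie left of -1, Ctsl lies right of 1, and the bars of Ctsh and Ctss are the widest.

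Ctss encodes a cysteine endopeptidase that works over a broad pH range and is known for trimming the invariant chain of class II molecules in antigen-presenting cells. Ctss (ENSMUSG00000038642) lies at chr3:95433963-95463717 of GRCm39, on the plus strand. Ctss was at 79.0, 58.2, 55.2, 76.5 and 81.4 FPKM in WT replicates 1 to 5 and at 3.83, 1.93, 15.4, 0.44 and 17.6 FPKM in cKO replicates 1 to 5. The groups were far apart, and the cKO libraries were themselves uneven, with replicates 3 and 5 high and replicate 4 close to 0. The highest cKO library was 40.0 times the lowest, against 1.47 times in WT. The log2 fold change was -4.07 ± 0.82 (SE; limma with Benjamini-Hochberg adjustment, adjusted p = 0.00218), with a 95% interval from -5.88 to -2.27. In these bulk samples, fewer cells of a type and less RNA per cell cannot be told apart.

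Ctsh encodes an aminopeptidase that takes residues off the start of a protein chain. The gene (ENSMUSG00000032359) lies at chr9:89936205-89958148 of GRCm39, on the plus strand. Its levels were 23.4, 15.4, 13.7, 19.8 and 23.5 FPKM in WT replicates 1 to 5 and 1.09, 0.37, 2.89, 0.15 and 4.66 FPKM in cKO replicates 1 to 5. The replicates fell in the same order as for Ctss in both groups, from 4 through 2, 1 and 3 to 5 in cKO and from 3 through 2, 4 and 1 to 5 in WT. This gave a log2 fold change of -4.04 ± 0.70 (SE; limma with Benjamini-Hochberg adjustment, adjusted p = 9.29e-04). By annotated exon length, the lowest value stood for about 11.2 fragments and that of Ctss in the same library for about 34.9. Both were above the 3 fragments taken as the floor, which is 0.0434 FPKM for Ctsh in the shallowest library, but the size of the fall is least exact there.

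Markers of monocytes and macrophages moved with both genes. Of 13 such markers, 11 were called lower, where 16.8% of all tested genes were, and 0 higher, where 4.60% were. None of the markers was at 0 throughout a group. Their summed level was 1757, 1044, 1007, 1505 and 1764 FPKM in WT replicates 1 to 5 and 78.5, 22.4, 191, 10.7 and 316 FPKM in cKO replicates 1 to 5, which ranks the libraries of each group exactly as Ctss and Ctsh do. The most abundant marker was Lyz2, the lysozyme of myeloid cells, at a mean of 694 FPKM in WT and 47.9 in cKO. Of the single markers, 8 of 13 had the cKO order of Ctss, among them the receptor gene Csf1r, and 12 of 13 had replicates 3 and 5 as the highest. That cKO order was not particular to these markers. Summed B lymphoid markers had it as well, at 2.32, 1.15, 6.19, 0.870 and 6.38 FPKM in cKO replicates 1 to 5. So did summed stromal and endothelial markers, at 3.76, 1.81, 4.07, 0.980 and 5.83 FPKM, but neither sum had the WT order of Ctss. Dendritic cell markers were called lower in 5 of 8 genes and 0 were called higher. They summed to 122 to 141 FPKM in WT and to 60.0, 31.3, 71.4, 33.9 and 49.0 FPKM in cKO replicates 1 to 5, led by Bst2, a gene that many cell types express. Siglech, a marker of plasmacytoid dendritic cells, was at 0 in cKO replicates 1, 2 and 4. The part of these cells in the levels of Ctss and Ctsh was not tested.

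**Figure D3:**
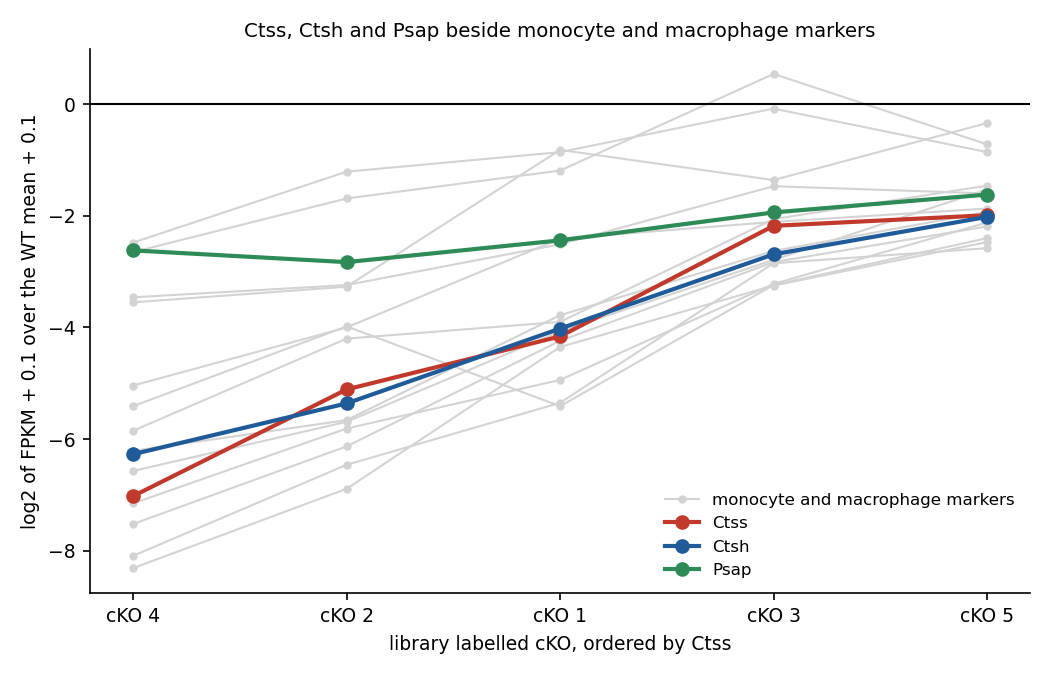
Log2 ratio of FPKM + 0.1 to the WT mean + 0.1 in each library labelled cKO, ordered by Ctss, for Ctss (red), Ctsh (blue), Psap (green) and 13 monocyte and macrophage markers (grey). Ctss and Ctsh rise from replicate 4 to replicate 5 among the markers, and Psap changes less from library to library.

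Of other cell types, neutrophil markers were called lower in 4 of 12 genes and 0 were called higher, with sums of 2736 to 3719 FPKM in WT and 2628, 182, 880.2, 147 and 1124 FPKM in cKO replicates 1 to 5. Over the 10 libraries Mpo was the most abundant, at a mean of 1162 FPKM in WT and 191 in cKO. The 4 genes called lower were Elane, Mpo, Prtn3 and Ctsg. Of the other 8, none was called, and all but Mmp8 had a higher mean FPKM in cKO than in WT. Ngp, for example, was at a mean of 10.3 FPKM in WT and 82.3 in cKO, with 318 FPKM in cKO replicate 1 and 2.41 to 66.4 in the other cKO libraries. S100a9 was at 895 FPKM in cKO replicate 1 and 7.57 to 158 in the others, and S100a8 at 443 and 2.51 to 79.2. These cKO means thus leaned on replicate 1. S100a8, S100a9, Ly6g and Retnlg nevertheless had negative log2 fold changes. Erythroid markers were called higher in 6 of 11 genes and 0 were called lower, with sums of 1166 to 2137 FPKM in WT and 3812 to 6511 FPKM in cKO, led by Car1 at 695 and 2573 FPKM. Megakaryocyte markers were called lower in 7 of 7 genes (275 to 1252 FPKM in WT and 79.6 to 183 in cKO). By mean they were led by Ppbp in WT (398 FPKM) and by Pf4 in cKO (53.4 FPKM, against 44.0 for Ppbp). Mast cell and basophil markers were lower in 5 of 7 and higher in 1, with sums of 682 to 1355 and 88.0 to 583 FPKM, led by Prss34. B lymphoid markers were lower in 2 of 5 tested genes (10.2 to 15.2 and 0.870 to 6.38 FPKM, led by Cd79b), T and NK markers in 4 of 6 (80.6 to 106 and 7.08 to 29.5 FPKM, led by Nkg7) and stromal and endothelial markers in 5 of 6 (19.9 to 27.2 and 0.980 to 5.83 FPKM, led by Pecam1). Stem and progenitor markers were lower in 4 of 6 genes (median log2 fold change -1.49) and led by Cd48, which was not called. Beside these counts, 16.8% of all tested genes were called lower and 4.60% higher. In these lists too, no gene was at 0 throughout a group. RNA of several lineages was thus at different levels in the 2 groups, and its part in the levels of the members was not tested.

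Psap (ENSMUSG00000004207) lies at chr10:60113431-60138380 of GRCm39, on the plus strand. It was at 529, 439, 356, 473 and 525 FPKM in WT replicates 1 to 5 and at 85.8, 65.2, 121, 75.7 and 151 FPKM in cKO replicates 1 to 5. The cKO libraries ranged from 14.0% to 32.5% of the WT mean, far below the WT range. As for Ctss, replicates 3 and 5 were the highest of the cKO libraries, but the span from lowest to highest was 2.32 times, much narrower. Psap thus had a log2 fold change of -2.27 ± 0.22 (SE; limma with Benjamini-Hochberg adjustment, adjusted p = 5.91e-05), with a 95% interval from -2.75 to -1.80. Relative to the membrane protein Lamp1, Psap was at a ratio of 2.39 to 3.04 in the WT libraries and of 0.474 to 1.11 in the cKO libraries.

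Ctsl, an endopeptidase found in most cell types, was the member that rose. Ctsl (ENSMUSG00000021477) lies at chr13:64507151-64518704 of GRCm39, on the minus strand. Ctsl was at 3.64, 4.16, 3.69, 3.53 and 4.16 FPKM in WT replicates 1 to 5 and at 6.38, 12.4, 13, 9.46 and 7.39 FPKM in cKO replicates 1 to 5. All cKO libraries exceeded all WT libraries, and replicate 5, the highest for Ctss, was among the lowest for Ctsl. For Ctsl the log2 fold change was 1.27 ± 0.19 (SE; limma with Benjamini-Hochberg adjustment, adjusted p = 3.98e-04). The ratio of Ctss to Ctsl was 21.7, 14.0, 15.0, 21.7 and 19.6 in WT replicates 1 to 5 and 0.60, 0.155, 1.18, 0.0465 and 2.38 in cKO replicates 1 to 5. Ctss thus exceeded Ctsl in every WT library but in only 2 of the cKO libraries, replicates 3 and 5.

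The carboxypeptidases Ctsz and Ctsb, the latter also an endopeptidase, were lower by less than 2-fold. Ctsz (chr2:174267304-174280832, minus strand) was at 106, 102, 98.5, 118 and 124 FPKM in WT replicates 1 to 5 and at 57.5, 52.2, 59.0, 63.4 and 60.1 FPKM in cKO replicates 1 to 5. These cKO libraries were even, with the highest 1.21 times the lowest. The log2 fold change of Ctsz was -0.91 ± 0.08 (SE; limma with Benjamini-Hochberg adjustment, adjusted p = 4.64e-05), just short of the fold required for a call, and it reached -1.01 with quantile normalization. Ctsb (chr14:63358384-63383372, plus strand) was at 52.3 to 58.2 FPKM in WT and at 45.7, 26.9, 30.1, 24.1 and 32.5 FPKM in cKO replicates 1 to 5. Replicate 1 stood nearest to WT, and the log2 fold change was -0.83 ± 0.14 (SE; limma with Benjamini-Hochberg adjustment, adjusted p = 8.59e-04).

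Ctsa protects neuraminidase and beta-galactosidase from breakdown besides its carboxypeptidase activity. Ctsa (chr2:164674778-164682961, plus strand) was at 22.7 to 28.9 FPKM in WT and 15.2 to 20.7 FPKM in cKO (log2 fold change -0.54 ± 0.09 SE; limma with Benjamini-Hochberg adjustment, adjusted p = 9.52e-04). Ctsc, a dipeptidyl peptidase that activates the serine proteases of neutrophil, mast cell and cytotoxic granules, rested on 1 library. Ctsc (chr7:87927092-87960096, plus strand) was at 19.9, 18.8, 15.2, 19.7 and 22.4 FPKM in WT replicates 1 to 5 and at 5.97, 20.3, 18.1, 25.9 and 15.1 FPKM in cKO replicates 1 to 5. Only cKO replicate 1 lay below the WT range by a wide margin, and replicate 4 lay above it. The log2 fold change was -0.31 (95% interval -1.02 to 0.41; limma with Benjamini-Hochberg adjustment, adjusted p = 0.473), and without cKO replicate 1 it was 0.03 (limma with Benjamini-Hochberg adjustment, adjusted p = 0.886). In that library the summed neutrophil markers were at 2628 FPKM, the highest of the cKO libraries. S100a9 (895 FPKM), S100a8 (443) and Ngp (318) stood above their WT ranges there, while Mpo (277), Elane (184) and Prtn3 (121) stood below theirs and were higher in cKO replicate 5. Their part in the level of Ctsc was not tested.

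Ctsd and Lamp1 changed least among the members outside Ctsc. Ctsd, the aspartic endopeptidase that also cuts the Psap precursor (chr7:141929646-141941775, minus strand), was at 104, 114, 103, 104 and 109.6 FPKM in WT replicates 1 to 5 and at 88.1, 100.3, 92.9, 104 and 102 FPKM in cKO replicates 1 to 5. The groups overlapped, and the log2 fold change of -0.14 ± 0.06 did not pass (SE; limma with Benjamini-Hochberg adjustment, adjusted p = 0.0942). It passed with an equal sum per library and with quantile normalization (limma with Benjamini-Hochberg adjustment, adjusted p = 0.0304 and 0.00583), but was -0.03 with median-ratio scaling (limma with Benjamini-Hochberg adjustment, adjusted p = 0.754). Lamp1 (chr8:13209121-13227360, plus strand) was at 174, 152, 149, 173 and 180.1 FPKM in WT replicates 1 to 5 and at 117, 137, 117, 147 and 136 FPKM in cKO replicates 1 to 5. The highest cKO library was just under the lowest WT library, and the log2 fold change was -0.34 ± 0.08 (SE; limma with Benjamini-Hochberg adjustment, adjusted p = 0.00715). This did not pass with median-ratio scaling or with a covariate for Xist (limma with Benjamini-Hochberg adjustment, adjusted p = 0.0552 and 0.0638), where the log2 fold change was -0.23 and -0.32. The 95% interval for Lamp1, from -0.53 to -0.15, lay wholly above that of Psap.

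RefSeq promoter sequences (table of build GRCm38.p6, 250 bases before and 50 bases from each start) were matched for 8 of the 10 members at 10 starts; Ctsb and Ctsh were not matched. They were searched on both strands for CACGTG, the E-box core bound by TFEB, MITF and many other factors, for TCACGTGA, a longer form that contains it, and for GAGGAA, the core of sites bound by PU.1 and other ETS factors. The stretches below were placed on GRCm39 by an exact match of the RefSeq sequence and show the letters found in capitals, on the strand of the gene. They show at least 1 match for each member in which any of these letters were found.
Lamp1, chr8:13209096-13209125, plus strand: atatCACGTGgtccagcgccCACGTGatgc
Ctsd, chr7:141941647-141941672, minus strand: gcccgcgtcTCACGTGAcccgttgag
Ctsa, chr2:164675678-164675706, plus strand: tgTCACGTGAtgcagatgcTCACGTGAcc
Ctsl, chr13:64518556-64518579, minus strand: gttagaagcCACGTGctgatctaa
Ctss, chr3:95434088-95434111, plus strand: aaagttcacTTCCTCattgtggat
Ctsc, chr7:87927135-87927158, plus strand: ctaactaacTTCCTCaggccacct
Psap, chr10:60113243-60113266, plus strand: tgggctggaTTCCTCacattgcaa
Lamp1 held CACGTG 4 times within 61 bases before its start, a number reached by 8 of 32851 promoters in the table. The stretch shown holds the first pair, and it overlaps annotated exons of Lamp1 and of Gm64292, a gene on the opposite strand. In Ctsd the letters began at base -99, in an exon of longer transcripts, and CACGTG stood once more at -245. In Ctsa they lay on both sides of a start inside the gene, within its exons, and in Ctsl at -236, in an exon of a longer transcript. CACGTG was in 4 of the 10 member promoters and in 7.15% of all, and TCACGTGA in 2 and in 0.974%. In Ctss the letters TTCCTC, the reverse complement of GAGGAA, were the first bases from the start, in its first exon, and GAGGAA stood also at -164, outside exons. In Psap they lay at -198, outside exons, and in Ctsc, which was not called, at -196 and -149, within its exons. The GAGGAA letters were in 3 of the 10 member promoters (Ctsc, Ctss and Psap), where 28.3% of all promoters hold them. Ctsl rose with CACGTG in its promoter, while Ctsd, Ctsa and Lamp1 had the same letters and did not rise, so the letters did not go with 1 direction. The share of G and C ranged from 43.3% at 1 of the starts of Psap, whose other start had 62.0%, to 67.3% at Ctsd, with a median of 52.7% over the table. A match describes letters and not a bound site.

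Taking the 8 cathepsins as a pool, their summed FPKM was 420.5, 389, 368, 425 and 450.0 in WT replicates 1 to 5 and 229, 229.6, 249, 246 and 257 in cKO replicates 1 to 5. The cKO libraries were close to each other in this sum although Ctss and Ctsh differed widely between them. Of the net difference between the means, -168 FPKM, Ctss made up 37.0%, Ctsz 30.5%, Ctsb 14.0% and Ctsh 10.3%. The loss was thus spread over several genes, with the moderate fold of the abundant Ctsz weighing nearly as much as the large fold of Ctss. The share of Ctss went from 17.0% ± 1.84 in WT to 3.14% ± 3.13 in cKO (mean ± SD, n = 5) and that of Ctsh from 4.63% ± 0.786 to 0.734% ± 0.740. The share of Ctsd went from 26.2% ± 2.37 to 40.3% ± 2.68, and that of Ctsl from 0.938% ± 0.0977 to 4.03% ± 1.25. For Ctsd this followed from the smaller sum, since its own level did not rise. Ctsz had a share of 26.7% ± 1.03 in WT and 24.1% ± 1.26 in cKO. The share of Ctsb was 12.9% to 15.1% in WT and 19.9%, 11.7%, 12.1%, 9.78% and 12.6% in cKO replicates 1 to 5, so that only replicate 1 was not below the WT range.

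**Figure D4:**
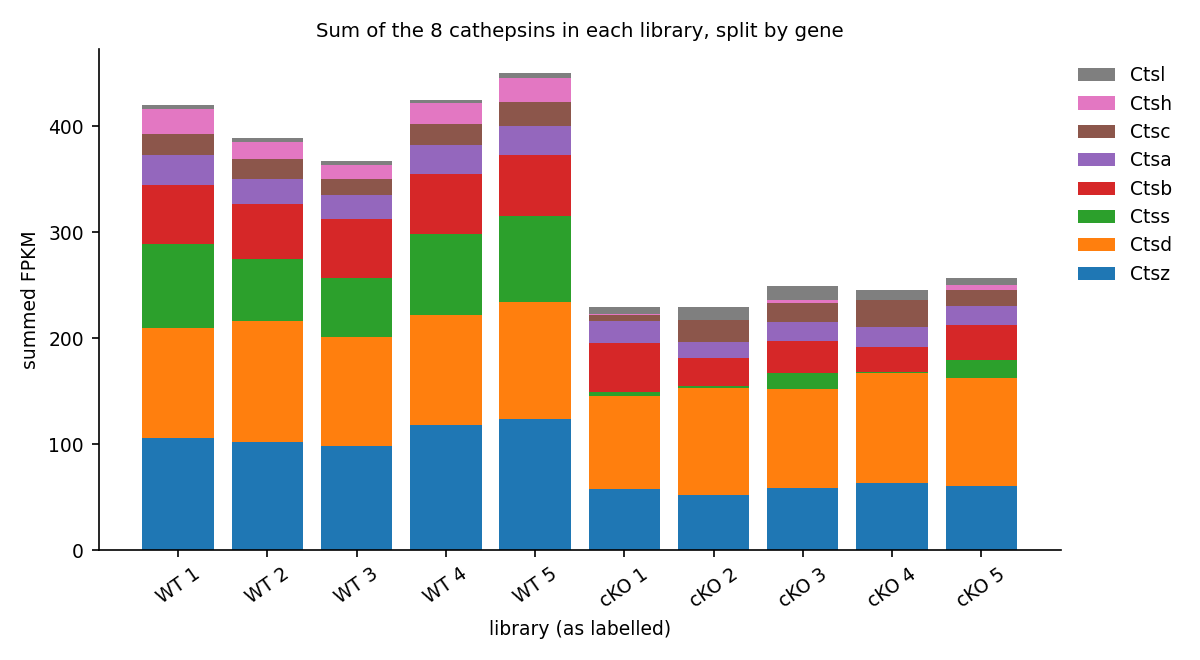
Summed FPKM of the 8 cathepsins in each library as labelled, split by gene, with bars starting at 0. The sum is at 368 to 450.0 FPKM in WT and 229 to 257 FPKM in the libraries labelled cKO, where the Ctss and Ctsh segments are small and Ctsd is the largest.

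For the likeness of patterns, the root-mean-square difference of log2(FPKM + 0.1), with each gene's mean subtracted, was taken over the 10 libraries. Between members it was smallest for Ctsd and Lamp1 (0.145), followed by Ctsa and Lamp1 (0.197), and was 0.308 for Ctsh and Ctss. By its construction the measure is small for any genes that vary little, so its size does not rank shared order. Ctsh and Ctss had the same order of replicates in both groups, whereas Ctsd and Lamp1 did not. The non-member genes nearest to Ctsh were Ly6c2 (0.153), a surface marker of monocytes, Mir223hg (0.169) and Mefv (0.180). Those nearest to Ctss were Gpr141 (0.203), Mefv (0.276) and Ifi211 (0.310). Nearest to Psap was Asah1 (0.067), the lysosomal acid ceramidase, ahead of Mfge8 (0.112) and Stk10 (0.117). For Ctsl they were Clstn1 (0.165), Junb (0.168) and Spire2 (0.176), and for Ctsz Lta4h (0.094), Scamp2 (0.094) and Aldh2 (0.10). Ctsa was nearest to Atp11b (0.064), Mtrf1l and Mroh1 (both 0.071), and Ctsb to Cep128 (0.068), St6galnac6 (0.079) and Arl6ip1 (0.082). Ctsd had Tle5 (0.031), Stam2 (0.051) and Rpn2 (0.052), Lamp1 had Prkd3, Commd7 (both 0.075) and Cnpy4 (0.077), and Ctsc had Dpp4 (0.149), Tcp11l1 (0.166) and Cd48 (0.174).

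Among 6 other cathepsins, 2 were called lower and 1 was called higher, at a median log2 fold change of -0.74. Over all tested genes, 16.8% were called lower and 4.60% higher, at a median of -0.11. Ctsg, the serine protease of neutrophil primary granules and 1 of the neutrophil markers, was at 517 to 748 FPKM in WT and at 277, 43.6, 144, 39.7 and 222 FPKM in cKO replicates 1 to 5. Its log2 fold change was -2.52, and that of Ctsw, found in cytotoxic lymphocytes, was -1.61 from levels of 1.12 to 1.68 FPKM in WT. Ctsf was at 0.67 to 1.46 FPKM in WT and 1.38 to 3.73 FPKM in cKO and rose by 1.21 on the log2 scale, although with a covariate for Xist neither Ctsf nor Ctsw passed (limma with Benjamini-Hochberg adjustment, adjusted p = 0.0653 and 0.0562). Their log2 fold changes were 1.14 and -1.46 with that covariate, close to those without it, and 0.78 and -0.74 with a pseudocount of 1. Ctse, an aspartic protease, was at 104 to 157 FPKM in WT and 95.5 to 351 FPKM in cKO and was not called.

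Of 9 tested cystatin genes, whose products inhibit cysteine cathepsins, 2 were called lower and 5 higher. Over all tested genes, 16.8% were called lower and 4.60% higher. The 5 called higher (Cstdc4, Cstdc5, Stfa1, Stfa2 and Stfa3) had WT means of at most 0.066 FPKM, under the filter of 0.1 FPKM. They were thus tested only through their cKO levels, so their number is not a result about the list. The secreted inhibitor Cst3 was at 141 to 216 FPKM in WT and 36.1 to 80.9 FPKM in cKO (log2 fold change -1.88), with cKO replicates 3 and 5 highest as for Psap, and Cst7 fell by 1.13 on the log2 scale. The remaining 2 genes were both stefins and not called. Of these, Cstb was lower by adjusted p alone, at 34.0 to 43.0 FPKM in WT and 24.7 to 29.3 FPKM in cKO (log2 fold change -0.44; limma with Benjamini-Hochberg adjustment, adjusted p = 0.00135), and Stfa2l1 did not pass (limma with Benjamini-Hochberg adjustment, adjusted p = 0.161, and 0.0475 without cKO replicate 4). The stefin genes Stfa2 and Cstdc5 were listed at 0 in every WT library. Stfa2 was at 8.13, 0.49, 5.95, 0.14 and 0.80 FPKM in cKO replicates 1 to 5 and Cstdc5 at 11.0, 0.52, 4.10, 0.08 and 0.24. Similar stefin copies may share reads, which was not tested, so their single values are uncertain. Both were highest in cKO replicates 1 and 3, as were 8 of the 12 neutrophil markers, among them Ngp, at 4.59 to 19.7 FPKM in WT and at 318, 8.85, 66.4, 2.41 and 16 FPKM in cKO replicates 1 to 5. The other 4, which were called lower, were highest in replicates 1 and 5, and 0 of the 12 were called higher. Their part in the stefin levels was not tested. Cstdc5 did not pass with a pseudocount of 1 or a covariate for Xist (limma with Benjamini-Hochberg adjustment, adjusted p = 0.0762 and 0.0791). Its fitted log2 difference was 1.39 with that pseudocount, and 3.49 both with and without the covariate.

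Lysosomal hydrolases and their cofactors include the enzymes that saposins assist. Of 48 tested, 21 were called lower, where 16.8% of all tested genes were, and 0 were called higher, where 4.60% were. The median log2 fold change of the 48 was -0.80. Lyz2, which is also a monocyte marker, was the most abundant over the 10 libraries and fell by 4.99 on the log2 scale. In cKO its mean of 47.9 FPKM was below that of Creg1 (109.6). Gm2a, the activator that presents ganglioside to hexosaminidase much as saposins present other lipids, was at 27.2 to 45.9 FPKM in WT and at 5.06, 2.59, 7.62, 1.85 and 12.8 FPKM in cKO replicates 1 to 5. Its log2 fold change was -2.95 ± 0.44 (SE; limma with Benjamini-Hochberg adjustment, adjusted p = 4.19e-04). Creg1, the next most abundant, was at 83.6 to 90.6 FPKM in WT and 92.1 to 127 FPKM in cKO and was not called.

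Of 22 lysosomal membrane proteins tested besides Lamp1, 10 were called lower and 0 were called higher, at a median log2 fold change of -0.88. The shares over all tested genes were 16.8% lower and 4.60% higher. Laptm5, a protein of blood cell lysosomes, was at 76.4 to 114 FPKM in WT and 26.4 to 61.0 FPKM in cKO (log2 fold change -1.15, and -0.96 without cKO replicate 1, where it was lowest). Laptm4a was at 86.2 to 95.1 and 60.0 to 74.3 FPKM and was not called. The scavenger receptor relative Cd68, also a monocyte marker, fell by 2.45 and the metal transporter Slc11a1 by 2.16 on the log2 scale, the latter at -0.97 with a pseudocount of 1.

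Of 17 tested V-ATPase genes, which encode the pump that acidifies lysosomes, 1 was called lower and 0 higher, and 8 were lower by adjusted p alone (median log2 fold change -0.25). The called gene was Tcirg1, a membrane subunit abundant in osteoclasts and immune cells, at 17.3 to 31.6 FPKM in WT and 2.55 to 7.99 FPKM in cKO (log2 fold change -2.20). The subunits Atp6v1g1 and Atp6v1f were at log2 fold changes of -0.18 and 0.13 and were not called. Of 21 sorting genes, 1 was called lower and 0 higher, while 7 were lower and 1 higher by adjusted p alone (median log2 fold change -0.12). The called gene was Sort1, a sorting receptor that carries Psap among other cargo, at 20.1 to 30.6 FPKM in WT and 5.16 to 11.6 FPKM in cKO (log2 fold change -1.62). The mannose 6-phosphate receptor M6pr was at 102 to 105 and 99.8 to 121 FPKM and the adaptor gene Ap1b1 at 46.9 to 58.5 and 45.0 to 76.1 FPKM, and neither was called. Over all tested genes, 16.8% were called lower and 4.60% higher, while 28.3% were lower and 16.7% higher by adjusted p alone.

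Among 18 genes of the TFEB family, which regulates lysosomal genes, and of nutrient sensing at the lysosome, 3 were called lower and 1 higher (median log2 fold change -0.12). Of all tested genes, 16.8% were called lower and 4.60% higher, at a median of -0.11, so these counts were close to the background. Tfec, a family member expressed in macrophages, fell by 3.38 and Tfeb by 1.37 on the log2 scale. Tfeb was at 1.83 to 2.17 FPKM in WT and 0.59 to 1.0 FPKM in cKO, and its log2 fold change was -0.86 with quantile normalization and -0.81 with a pseudocount of 1, too small for a call. Rragd rose by 1.41 from at most 0.14 FPKM, but with a covariate for Xist it did not pass (limma with Benjamini-Hochberg adjustment, adjusted p = 0.0826). Its log2 fold change was 1.09 with that covariate and 0.37 with a pseudocount of 1. Lamtor5 and Lamtor2 were at -0.09 and -0.39 and were not called. Of 22 autophagy genes, 0 were called with limma in either direction at the 2-fold rule. By adjusted p alone 4 were higher and 6 lower, close to the 16.7% and 28.3% of all tested genes. The most abundant autophagy genes, Gabarap and Gabarapl1, were at log2 fold changes of -0.33 and 0.24.

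The invariant chain, which Ctss trims in antigen-presenting cells, and class II molecules were called lower in 4 of 8 genes and higher in 0, with a median log2 fold change of -1.85. The shares over all tested genes were 16.8% lower and 4.60% higher. H2-DMb1 was at 11.1 to 16.6 FPKM in WT and at 0.86, 1.45, 2.45, 0.60 and 3.21 FPKM in cKO replicates 1 to 5 (log2 fold change -3.14), with replicates 3 and 5 highest and 4 lowest, as for Ctss. H2-DMa fell by 2.15 and H2-DMb2 by 2.47 on the log2 scale. The class II chains H2-Aa, H2-Ab1 and H2-Eb1 were not called (limma with Benjamini-Hochberg adjustment, adjusted p = 0.0736, 0.149 and 0.299), and H2-Eb1 was at 8.78 FPKM in cKO replicate 3, above its WT range of 3.29 to 4.41 FPKM. H2-Aa was called lower without cKO replicate 3 or 5 (log2 fold change -2.19 and -1.98; limma with Benjamini-Hochberg adjustment, adjusted p = 0.0115 and 0.0425). Cd74, the invariant chain, was at 14.6 to 21.7 FPKM in WT and at 1.98, 2.63, 20.2, 1.12 and 9.62 FPKM in cKO replicates 1 to 5. Replicate 3 lay within the WT range although its Ctss was at 15.4 FPKM. The log2 fold change of Cd74 was -2.05 (limma with Benjamini-Hochberg adjustment, adjusted p = 0.0248). Its call was lost with a covariate for Xist (limma with Benjamini-Hochberg adjustment, adjusted p = 0.141) and without WT replicate 5 or cKO replicate 1, 2 or 4 (adjusted p = 0.0538, 0.0537, 0.0593 and 0.0517 in limma with Benjamini-Hochberg adjustment). The log2 fold change was -1.88 with the covariate and -1.97, -1.79, -1.89 and -1.6 without these libraries.

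**Figure D5:**
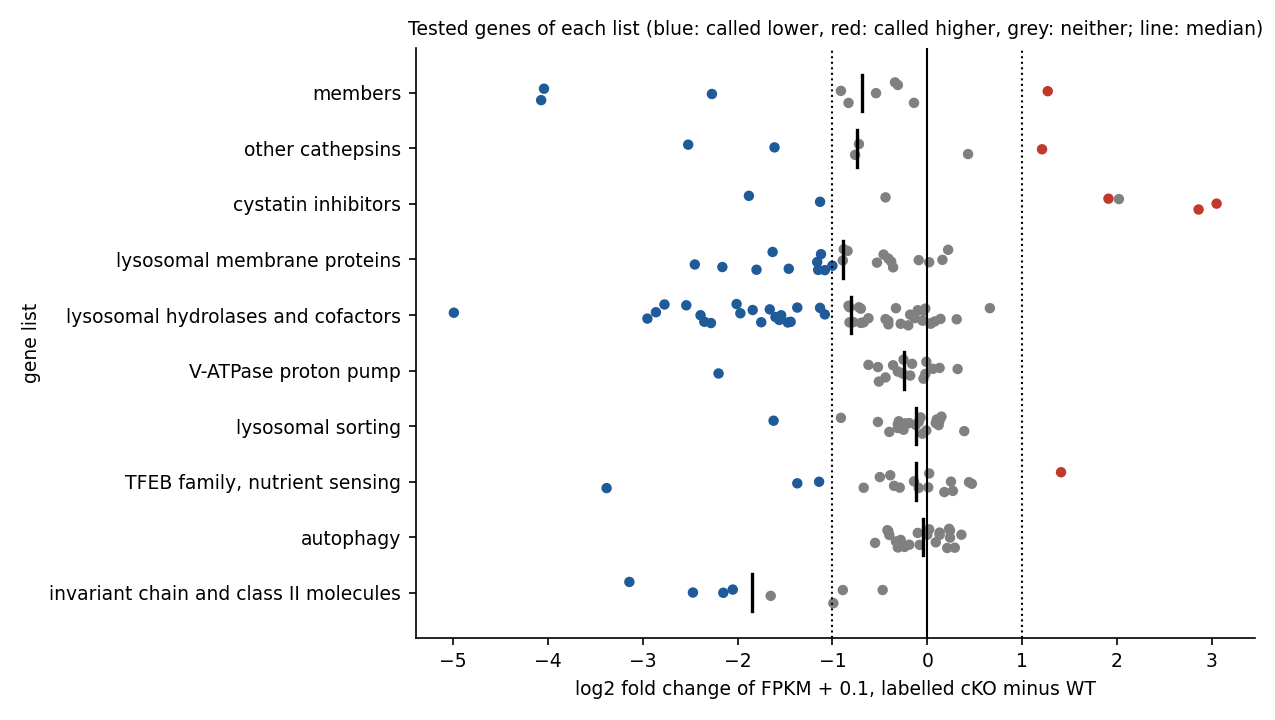
Log2 fold change of each tested gene of the members and 9 lists, cKO as labelled minus WT, with called genes in blue (lower) or red (higher), other genes in grey and a line at each median. No median is drawn for the cystatins, of which 2 genes listed at 0 in every WT library are not plotted. Called genes lie mostly to the left among hydrolases and membrane proteins and are rare among V-ATPase, sorting and autophagy genes.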

How the data were processed

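The authors trimmed reads, aligned paired-end reads to GRCm39 and deposited FPKM per gene and library; the submitters' processing notes name cutadapt 1.9.1, HISAT2 2.0.1 and HTSeq 0.6.1. The annotation and gene lengths behind the FPKM are not given in the sources used here. Of 55359 identifiers, 54749 matched the GENCODE annotation of GRCm39. Depth was read from low values of genes with 1 transcript, of which 95.9% to 96.3% per library were whole within 0.2 (40% by chance).

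FPKM are not counts, so no count test was run. The test was limma 3.58.1 (R 4.3.3, eBayes with trend, two-sided) on log2(FPKM + 0.1) over genes averaging 0.1 FPKM or more, with Benjamini-Hochberg adjustment over all 18742. Fold changes on this scale understate those of low genes. The steps were tested on simulated data. Tables and figures used Python 3.11.15.

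Genes named were the 10 members, Dhx9, Xist and Ddx3y; of each list, the 2 most abundant tested genes and the 2 most negative and 2 most positive called; markers given beside the members; and the 3 genes nearest to each member among those averaging 1 FPKM or more. Cstb, Stfa2l1, H2-Aa, H2-Ab1, H2-Eb1, Gm64292 and the single markers other than the most abundant were named after their values were seen. Members and lists were chosen with earlier results of these data known. Nothing in the labels says more than that replicates are separate samples, so p-values measure the spread between these samples.

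Other settings tried were pseudocounts of 0.01 and 1, the filter removed or raised to 1 FPKM, scaling of the libraries by median ratios or to equal sums, quantile normalization, eBayes without the trend, a block for the replicate number, a covariate for Xist above 1 FPKM, calls from adjusted p alone and the omission of each library in turn. A planned description of the proteins was not done.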

Additional observations from a re-analysis of the deposited data

Results flagged for a closer look

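Of 136 groups of 5 libraries examined, 8 had a highest or lowest library set apart from the others by most of the group's range (Dixon's test at the 95% limit), which chance gives in about 1 in 20 groups. Among the members this concerned the share of Ctsb in the cathepsin sum, at 19.9% in cKO replicate 1 and at 15.1% in WT replicate 3, both the highest of their group. The summed mast cell and basophil markers were lowest in WT replicate 3, at 682 FPKM. Gabarapl1 was lowest in WT replicate 1 at 42.8 FPKM, Slc11a1 highest in WT replicate 5 at 2.28 FPKM and Rragd lowest in cKO replicate 5 at 0.17 FPKM. Among the cystatins, Cstb was highest in WT replicate 1 at 43.0 FPKM and Stfa2l1 highest in cKO replicate 1 at 9.31 FPKM.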

How the results depend on the processing

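Under 21 alternatives the members gave 210 values. The calls of Ctss, Ctsh, Psap and Ctsl held in all of them, with log2 fold changes of -4.60 to -3.34, -4.55 to -3.07, -2.44 to -2.14 and 1.11 to 1.55. Of the others, 1 turned sign, Ctsc at 0.03 without cKO replicate 1, against -0.49 without cKO replicate 4. Members called lower rose from 3 to 7 by adjusted p alone, by that rule's construction. Over all genes, 862 were called higher and 3153 lower; these became 356 and 1486 with a pseudocount of 1, 462 and 1827 with the filter raised to 1 FPKM, which tests fewer genes, and 3138 and 5300 by adjusted p alone. With quantile normalization 1581 were called higher and 2245 lower, and the cause was not tested. With the replicate number as a block, 857 were called higher and 3107 lower, and members were called as before, 1 higher and 3 lower; same-numbered libraries deviated together at correlations of 0.18, 0.09, -0.08, 0.00 and 0.19, so they share only a number. Of the genes named from the lists or as nearest to a member, those that turned sign, none of them called, were Lamtor5 (0.02), Cd48 (0.06) and Rpn2 (0.02) with median-ratio scaling, Stam2 (0.11) and Tcp11l1 (0.14) with quantile normalization, Cd48 without WT replicate 1 (0.01) or cKO replicate 1 (0.29) and Dpp4 without cKO replicate 1 (0.01), against -0.17 and -0.50 for these genes without cKO replicate 4; the cause was not tested. Of the single markers named, S100a9, not called at -0.20, turned to 0.25 and 0.55 without cKO replicate 2 or 4. Ly6g, not called at -0.25, turned sign in 6 alternatives (0.04 to 0.10 there), and Retnlg, not called at -0.22, in 4 (0.07 to 0.62). Mmp8, not called at -2.48, was called lower in 4 alternatives (-2.98 to -1.58 there). Mecom, called lower at -1.05, lost its call in 5 alternatives (-0.99 to -0.24 there). Xist and Ddx3y lost their calls with the covariate for Xist, at 0.02 and -0.02, and in 11 and 10 other alternatives. Dhx9, at the 2-fold limit, lost its call in 9 alternatives but not its direction (0.89 to 1.0 there). At 13837000 fragments in the shallowest library, levels under 0.0434 FPKM of Ctsh stand for under 3 fragments.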
